A study of Mus musculus with 12 samples.

Results

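The genes described here are 10 members of the LIF and STAT3 pathway, measured by RNA-seq in mouse embryonic stem cells that were grown with LIF: Lifr, Il6st, Jak1, Stat3, Socs3, Pim1, Pim3, Bcl3, Gbx2 and Junb. They were chosen by symbol, from the role each gene has in the pathway, and all 10 were found among the 31641 gene symbols of the count table. LIF, leukemia inhibitory factor, is the cytokine that keeps mouse embryonic stem cells in an undifferentiated, self-renewing state in serum culture. It joins the receptor chains LIFR and gp130 (encoded by Il6st) on the cell surface, and this activates the kinase JAK1, which is bound to the receptor. JAK1 phosphorylates the transcription factor STAT3, which then enters the nucleus and switches on its target genes. Among these targets is Socs3, whose protein binds gp130 and JAK and damps the signal, so that its transcript is often read as an output of the pathway. RNA-seq gives transcript levels only, and phosphorylated STAT3 was not among the measurements.

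The study set WT-1 and WT-2, which are 2 lines of wild-type genotype, against Mut-1 and Mut-2, which are 2 lines of the genotype Tin2 S341X. TIN2, encoded by Tinf2, is a subunit of shelterin, the protein complex on telomeres. The labels do not say how many copies of the gene carry the change. All 4 lines are embryonic stem cells derived from C57BL/6 blastocysts, kept in serum with LIF on a layer of mouse embryonic fibroblasts, and the labels describe no group without LIF. Each line had 3 libraries, which the design text calls technical replicates, for 12 libraries in all. The genotype was therefore compared over 2 lines against 2, and the variation among libraries from 1 line says nothing of the variation among independent lines.

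Library totals ran from 14766477 to 17891894 counts. Tinf2 had 57.6 to 69.1 CPM (read counts scaled to the library total, with edgeR's trimmed mean of M-values, TMM) in the wild-type libraries and 19.6 to 30.1 CPM in the mutant libraries, with no overlap of the groups. The 12 stem cell markers were present in every library, with Pou5f1 at 240.5 to 385 CPM, Nanog at 534 to 999.9 and Esrrb at 761 to 974. WT-1 replicates 1 and 2 stood closer to each other than any other libraries of a line, with a chi-square per degree of freedom of 1.62 against 10.9 to 38.4 for the other pairs; since that is still above sampling noise, both stayed in the line total. Transcripts of fibroblast markers were in every library, and whether they came from the feeder layer or from the stem cell lines was not measured. The feeder share, which is how many percent of the counts in a library fell on 24 fibroblast markers, was 0.340 to 0.5% in wild-type and 0.373 to 0.924% in mutant libraries, and the summed lines had 0.436 and 0.448% against 0.580 and 0.730%. In an exact two-sided permutation test over the 4 lines this difference had p = 0.333, the smallest value that 2 against 2 can give.

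Per kilobase of merged exons, the scale on which levels of different genes can be set side by side, the transcripts covered a range from a few to more than 80 CPM per kb. The targets Pim3, Socs3, Pim1 and Junb stood at the top, while the targets Bcl3 and Gbx2 lay lower. The receptor chains were near the bottom, beside Gbx2. Pim3, a serine/threonine kinase that supports survival and growth, had the highest level, with a mean of 82.7 CPM per kb and 74.1 to 93.1 over the 4 lines. Socs3 followed at 50.2 CPM per kb (40.2 to 60.6), then Pim1, the related kinase, at 35.8 (27.6 to 46.6), and Junb, a subunit of the AP-1 transcription factor, at 29.9 (20.1 to 40.3). These last 3 genes overlapped over the lines with their neighbour in the order, Socs3 with Pim1 and Pim1 with Junb. Within each line Socs3 was above Pim1, though only at 40.2 against 39.9 CPM per kb in Mut-2. Pim1 and Junb changed order between lines and so cannot be ranked, and no order was tested. Stat3 had a level of 18.8 CPM per kb (18 to 19.9). Bcl3, an atypical IκB protein that acts as a transcriptional coregulator, had 14.5 (13.1 to 15.9), which overlapped Jak1 at 12.7 (11.8 to 14.2). Il6st had 6.90 CPM per kb (6.25 to 7.37) and Lifr 4.73 (3.86 to 5.39). Gbx2, a homeobox transcription factor whose forced expression can sustain stem cells without LIF, was lowest at 4.42 (3.33 to 6.75) and overlapped Lifr.

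**Figure D1:**
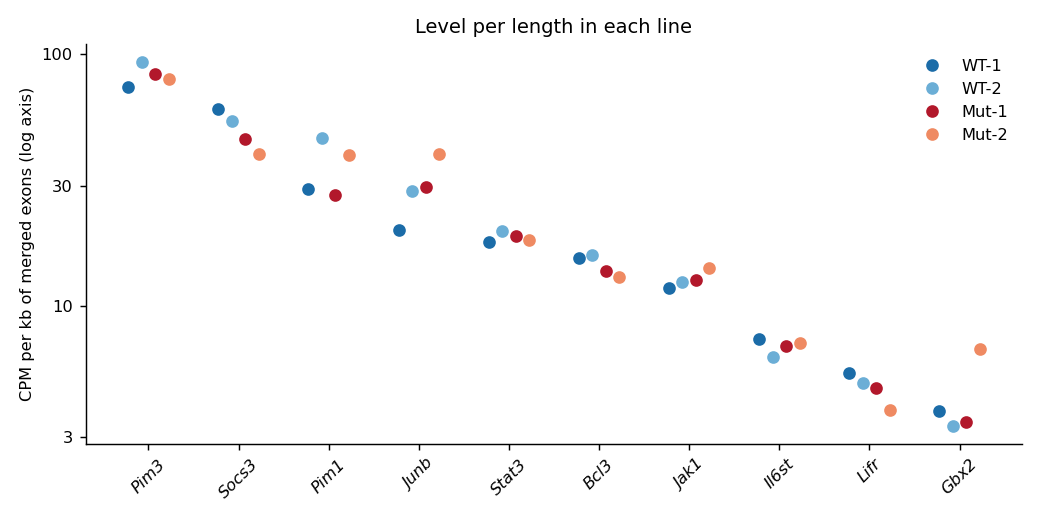
Level per length of each of the 10 genes in the 4 lines, as CPM per kb of merged exons on a log axis, with 1 point per line and the genes in order of their mean. Pim3 lies above all others at 74.1 to 93.1 CPM per kb and Gbx2 has its 1 high point in Mut-2, at 6.75.

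For the receptor chains and the kinase, libraries of a line lay closer together than for most genes, as given below. Lifr, on chromosome 15 (7090614 to 7197489, plus strand, GRCm38 with GENCODE M21, as for the positions of the other members), had 61.0, 59.2 and 52.9 CPM in WT-1 replicates 1, 2 and 3, 48.3, 51.6 and 60.1 in WT-2, 49.1, 56.4 and 49.1 in Mut-1, and 43.5, 43.3 and 37.1 in Mut-2. Only in Mut-2 did all 3 Lifr libraries lie below every wild-type library, while Mut-1 overlapped both wild-type lines. The line totals were 55.6 ± 3.43 CPM in wild type and 46.3 ± 6.56 in mutants (both ± SD over n = 2 lines). The log2 fold change was -0.27 with a standard error (SE) of 0.13 (95% interval -0.57 to 0.04; adjusted p = 0.437 in edgeR's quasi-likelihood test on line totals with Benjamini-Hochberg adjustment over all genes). Lifr did not pass the test. In these bulk samples fewer cells that express a gene and less RNA per cell cannot be told apart, here and for every gene below.

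Il6st, the gene of the shared signalling chain gp130 (chromosome 13, 112464070 to 112510086, plus strand), had 80.1, 82.7 and 80.9 CPM in WT-1, 64.3, 71.2 and 72.8 in WT-2, 90.4, 71.9 and 68.3 in Mut-1, and 81.7, 77.7 and 77.0 in Mut-2. The groups overlapped, with WT-2 replicate 1 below every mutant library and Mut-1 replicate 1 above every wild-type library, and WT-2 was the lowest line. The totals of 75.6 ± 8.80 and 77.8 ± 1.97 CPM gave a log2 fold change of 0.04 (SE 0.12; 95% interval -0.23 to 0.31; adjusted p = 0.914, edgeR).

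Jak1 (chromosome 4, 101152367 to 101265282, minus strand) had 81.1, 87.9 and 84.4 CPM in WT-1, 92.5, 93.7 and 83.1 in WT-2, 109, 84.5 and 83.6 in Mut-1, and 103, 110.4 and 92.6 in Mut-2. Its 3 highest libraries, Mut-1 replicate 1 and Mut-2 replicates 1 and 2, were the 3 libraries with the highest feeder share, called feeder-rich below. Line totals of 87.6 ± 3.51 CPM in wild type and 97.2 ± 7.63 in mutants did not overlap, and the log2 fold change was 0.15 (SE 0.11; 95% interval -0.10 to 0.40; adjusted p = 0.6, edgeR). With the feeder share as a covariate in limma the value was -0.01, and without the 3 feeder-rich libraries it was 0.02 in edgeR. Over the 12 libraries Pearson's r of Jak1 with the feeder share was 0.95, and 0.219% of 11411 genes had an r at least as high. Among the 9 other libraries r was 0.75. Both are descriptions of libraries from shared lines and cultures. All feeder-rich libraries are mutant, and the part of feeder RNA in the Jak1 difference was not tested.

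Stat3 varied little. The gene lies on chromosome 11 (100885098 to 100939540, minus strand). Its WT-1 libraries had 148, 155 and 205 CPM, with 194, 176 and 199 in WT-2, 168, 194 and 188 in Mut-1, and 165, 183 and 174 in Mut-2. Both its lowest and its highest library came from WT-1, and the mutant libraries lay within the wild-type range. The totals of 180.4 ± 13.2 and 178 ± 4.70 CPM gave a log2 fold change of -0.02 (SE 0.11; 95% interval -0.27 to 0.22; adjusted p = 0.952, edgeR).

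Socs3 was the member with the lowest unadjusted p in the genotype comparison. It lies on chromosome 11 (117966079 to 117970047, minus strand). Its WT-1 libraries had 199, 198 and 127 CPM, with 214, 115 and 143 in WT-2, 145, 117 and 139 in Mut-1, and 137, 101 and 106 in Mut-2. The 3 highest libraries were wild type, at 198 to 214 CPM, but the other 3 wild-type libraries lay among the mutant ones. Totals were 166 ± 12.6 CPM in wild-type lines and 125 ± 12.1 in mutant lines, with no overlap of lines and a log2 fold change of -0.42 (SE 0.12; 95% interval -0.69 to -0.14; adjusted p = 0.241, edgeR). After adjustment over 18749 genes Socs3 did not pass. Its log2 fold change was -0.39 with the feeder share as a covariate in limma and -0.49 without the 3 feeder-rich libraries.

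The PIM kinases did not separate the genotypes. Pim1 (chromosome 17, 29490753 to 29496112, plus strand) had 88.3, 99.1 and 105 CPM in WT-1, 176, 157 and 135 in WT-2, 81.5, 120.2 and 82.0 in Mut-1, and 135, 125 and 141 in Mut-2. Every library of WT-2 and Mut-2 was above every library of WT-1 and Mut-1, so that Pim1 divided the lines across the genotypes. Its genotype difference was -0.17 on the log2 scale (SE 0.24; 95% interval -0.71 to 0.38; adjusted p = 0.805, edgeR). Pim3 (chromosome 15, 88862186 to 88865726, plus strand) had 159, 159 and 216 CPM in WT-1, 208, 201 and 273 in WT-2, 163, 203 and 248 in Mut-1, and 205, 186 and 187 in Mut-2. Replicate 3 held the highest Pim3 level in 3 of 4 lines, and the genotype difference was -0.03 (SE 0.13; 95% interval -0.33 to 0.26; adjusted p = 0.936, edgeR).

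Bcl3 and Gbx2 were spread widely within some lines. From lowest to highest library Bcl3 differed only 1.09-fold within Mut-2, and Gbx2 only 1.22-fold within WT-1. Bcl3 (chromosome 7, 19808462 to 19822770, minus strand) had 45, 49.9 and 20.1 CPM in WT-1, 49.0, 46.1 and 21.5 in WT-2, 29.6, 30.9 and 42.7 in Mut-1, and 33, 32.9 and 30.4 in Mut-2. In both wild-type lines replicate 3 lay below every mutant library, while replicates 1 and 2 lay above every mutant library. The line totals of 38.9 ± 0.820 and 33.2 ± 1.31 CPM thus did not overlap although the libraries did, and the log2 fold change was -0.23 (SE 0.12; 95% interval -0.49 to 0.04; adjusted p = 0.447, edgeR). Gbx2 (chromosome 1, 89927956 to 89931179, minus strand), the member with the fewest counts, had 9.24, 7.92 and 7.55 CPM in WT-1, 3.86, 10 and 7.86 in WT-2, 4.96, 12.6 and 5.83 in Mut-1, and 6.17, 16.3 and 23.1 in Mut-2. Only 2 Mut-2 libraries and 1 Mut-1 library exceeded the wild-type range, and the genotype difference was 0.52 (SE 0.30; 95% interval -0.17 to 1.20; adjusted p = 0.499, edgeR).

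Junb (chromosome 8, 84974484 to 84978718, minus strand) had 33.2, 31.6 and 71.6 CPM in WT-1, 52.3, 75.1 and 69.8 in WT-2, 53.7, 78.7 and 75.6 in Mut-1, and 50.1, 109 and 126 in Mut-2. Replicate 1 was lower than replicate 3 in all 4 lines, and the 2 highest libraries were Mut-2 replicates 2 and 3. Totals were 56.0 ± 13.8 CPM in wild type and 80.5 ± 17.3 in mutants, which did not overlap, with a log2 fold change of 0.53 (SE 0.20; 95% interval 0.07 to 0.98; adjusted p = 0.327, edgeR). Junb did not pass after adjustment, and its value was 0.70 with the feeder share as a covariate in limma and 0.86 without the 3 feeder-rich libraries. In that subset Mut-2 stood on replicate 3 alone, its highest Junb library. The whole span of Junb, introns included, shares 351 bases with that of Prdx2 on the opposite strand, which had a mean of 150 CPM. How far exons overlap there was not measured. No strand setting is stated, so reads from any shared exon bases cannot be told apart. The spans of Pim1, Bcl3 and Gbx2 likewise overlap noncoding genes on the opposite strand, and that of Stat3 shares 72 bases with Stat5a. The span of Jak1 shares 4 bases with Raver2, 104 with an snRNA gene and 172 with a pseudogene on its own strand. For these genes too, exon overlap was not measured.

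**Figure D2:**
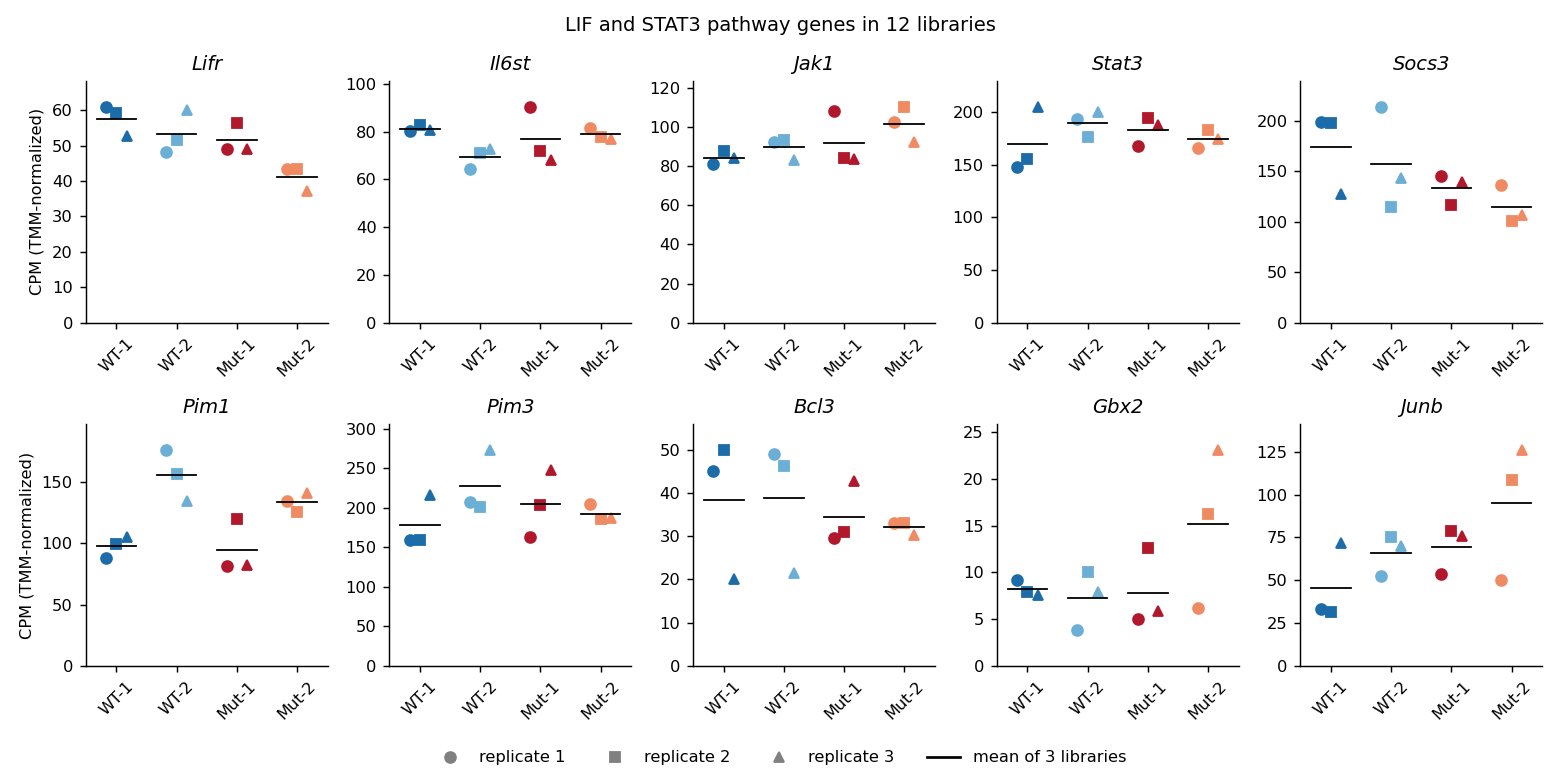
CPM (TMM-normalized, y axis from 0) of each gene in the 12 libraries, grouped by line on the x axis, with a symbol for each replicate number and a bar at the mean of the 3 libraries. Pim1 is higher in WT-2 and Mut-2 than in WT-1 and Mut-1, and Socs3, Bcl3, Gbx2 and Junb differ more between libraries of a line than Lifr, Il6st, Jak1 and Stat3 do.

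Of the 10 members, 0 were called at an adjusted p under 0.05 in the genotype comparison, where 0% of the 18749 genes tested were called by edgeR. At an unadjusted p under 0.05 there were 2 members, Socs3 and Junb, beside 13.1% of all genes, so the members' share is near the background. DESeq2 called 361 genes in the same comparison, 2.39% of those it tested, and 0 members. Of the members 4 were higher and 6 lower in mutants, where 49.8% of all genes were higher, and the median log2 fold change was -0.03 against -0.00 over all genes. Line totals did not overlap for 5 members, Jak1 and Junb higher and Lifr, Socs3 and Bcl3 lower in mutants, beside 45.7% of all genes (23.8% higher and 21.8% lower). At the level of single libraries 0 members separated the genotypes, beside 1.97% of all genes.

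Within pairs of lines the members again gave 0 calls in the edgeR fit of 12 libraries. Genes called at an adjusted p under 0.05 made up 0.327% of 16533 between Mut-1 and WT-1, 0.925% between Mut-2 and WT-2, 0.0181% between WT-2 and WT-1, and 0.26% between Mut-2 and Mut-1. At an unadjusted p under 0.05 there were 0, 2, 1 and 2 members in these pairs, against 11.3%, 15.1%, 7.61% and 6.88% of all genes. Pim1 accounted for the smallest p, in WT-2 against WT-1, where the log2 fold change was 0.68 (SE 0.16; 95% interval 0.34 to 1.02; adjusted p = 0.285, edgeR). DESeq2 called Pim1 in that pair, at an adjusted p of 0.0491, where it called 0.31% of all genes. Between the mutant lines Pim1 was higher in Mut-2 by 0.50 (SE 0.16; adjusted p = 0.475, edgeR), and within the genotype pairs it differed by -0.05 (Mut-1 against WT-1) and -0.22 (Mut-2 against WT-2). The shift in Pim1 between lines of 1 genotype was therefore larger than its shift between genotypes, although neither passed in edgeR and the difference between them was not tested.

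Lifr was lower in Mut-2 than in WT-2 by a log2 fold change of -0.37 (SE 0.12; 95% interval -0.64 to -0.10; adjusted p = 0.175, edgeR) and lower than in Mut-1 by -0.32 (SE 0.12; adjusted p = 0.667). Gbx2 was higher in Mut-2 than in WT-2 by 1.06 (SE 0.46; 95% interval 0.06 to 2.06; adjusted p = 0.302, edgeR). In Mut-1 against WT-1, Gbx2 had -0.08 (SE 0.46), and the difference between the pairs was not tested. Socs3 had -0.38 (SE 0.23; adjusted p = 0.518) in Mut-1 against WT-1 and -0.45 (SE 0.23; adjusted p = 0.366) in Mut-2 against WT-2. Junb had 0.61 (SE 0.35; adjusted p = 0.508) and 0.53 (SE 0.34; adjusted p = 0.512) in these pairs. Between the 2 wild-type lines, Junb differed by as much, at 0.53 (SE 0.34; adjusted p = 0.756), and these pairs share libraries of WT-1 and WT-2. The other members, Il6st, Jak1, Stat3, Pim3 and Bcl3, had values between -0.28 (Bcl3, Mut-2 against WT-2) and 0.35 (Pim3, WT-2 against WT-1) in the 4 pairs.

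**Figure D3:**
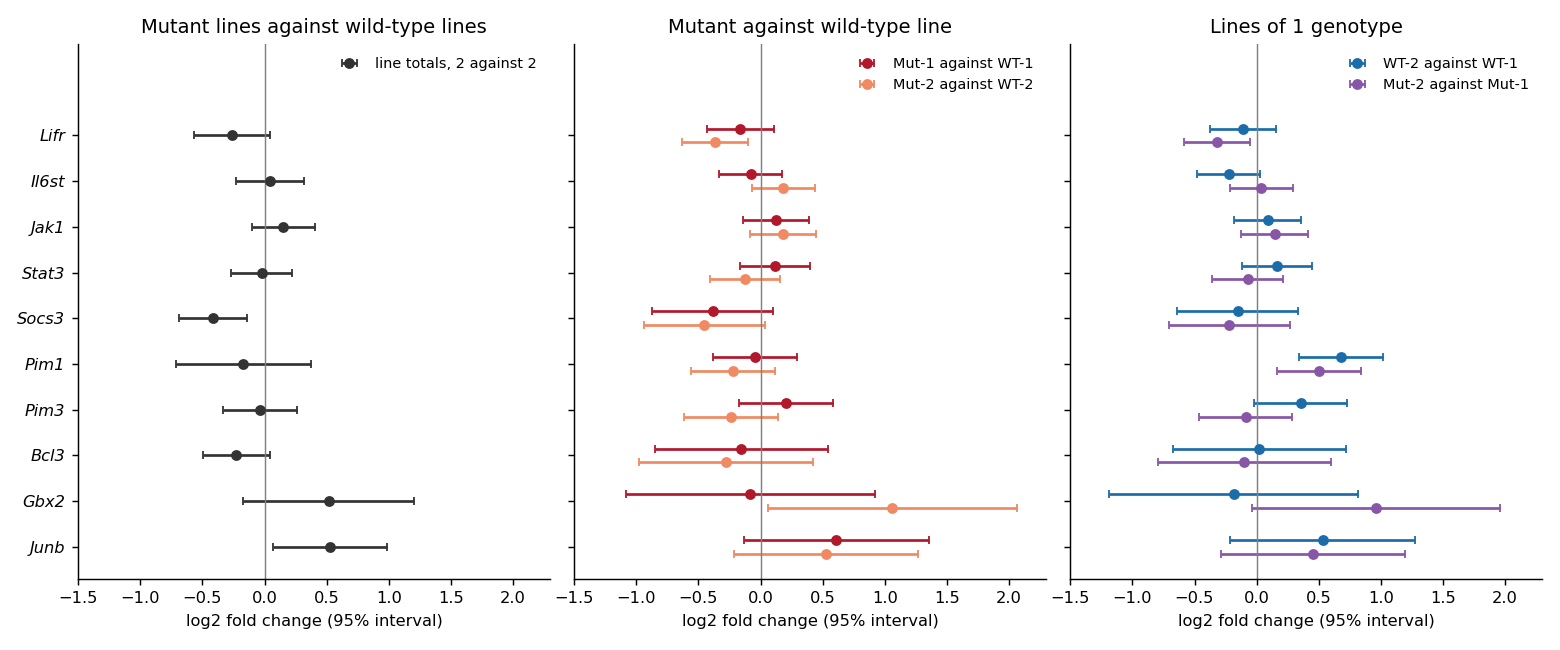
Log2 fold change (x axis) of each gene with its 95% interval in edgeR, for the 2 mutant against the 2 wild-type lines as totals (left), for each mutant line against the wild-type line of the same number (middle), and for the 2 lines of each genotype (right). On the left the intervals of Socs3 and Junb leave 0, in the middle those of Lifr and Gbx2 for Mut-2 do, and on the right those of Pim1 in both genotypes and of Lifr in the mutants, but no gene passed after adjustment over all genes.

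Libraries of a line lay closer together for the receptor chains, Jak1 and Stat3 than for most of the targets. As the standard deviation of log2(CPM + 0.5) between libraries of a line, the spread was 0.13 for Lifr, 0.12 for Il6st, 0.14 for Jak1 and 0.15 for Stat3, and 13.0 to 24.8% of 11411 genes (those at 5 CPM or more on average) had a smaller spread. The targets spread more: 0.20 for Pim1, 0.23 for Pim3, 0.33 for Socs3, 0.50 for Bcl3, 0.52 for Junb and 0.67 for Gbx2, against a median of 0.21 over these genes. For Gbx2, 98.7% of the genes had a smaller spread, for Junb 96.2% and for Bcl3 95.5%. From the lowest to the highest of the 12 libraries, levels differed 1.36-fold for Jak1, 1.41-fold for Il6st, 2.12-fold for Socs3, 3.99-fold for Junb and 5.99-fold for Gbx2.

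Socs3 and Junb, both known targets of STAT3, ran in opposite directions over the libraries. Pearson's r between them was -0.87 over the 12 libraries (Spearman's rho -0.83), -0.92 without the 2 libraries whose Socs3 was farthest from the median, -0.88 over the 6 mutant libraries and -0.83 over the 6 wild-type libraries. After the mean of each line was taken away r was -0.82, so the relation did not rest on the lines' means. It is a description of libraries that share lines, cultures and replicate numbers, and 0.149% of 11411 genes had an r with Socs3 at least as low. In every line replicate 1 had the highest Socs3 level, and Junb in replicate 1 was between 33.2 and 53.7 CPM. The promoters of these 2 genes are shown because they had the lowest p-values of the members and opposite directions; each is the 250 bases before the transcript start on the minus strand in RefSeq's GRCm38.p6 table, 5′ to 3′. For Socs3 this is chr11:117969367-117969616, a window that ends 180 bases upstream of the protein-coding transcript Socs3-201 of GENCODE M21 but lies inside the gene's bounds there, within the intron and, for 77 bases, an exon of noncoding transcripts. It is printed with capitals for a match to TTCNNNGAA, the palindrome that STAT dimers recognise. For Junb it is chr8:84978749-84978998, which holds no match to these letters.
Socs3: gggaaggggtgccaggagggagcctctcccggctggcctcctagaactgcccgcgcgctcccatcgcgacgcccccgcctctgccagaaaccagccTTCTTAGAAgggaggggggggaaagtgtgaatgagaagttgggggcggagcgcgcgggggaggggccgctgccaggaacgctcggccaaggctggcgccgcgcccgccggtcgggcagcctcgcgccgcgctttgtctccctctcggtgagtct
Junb: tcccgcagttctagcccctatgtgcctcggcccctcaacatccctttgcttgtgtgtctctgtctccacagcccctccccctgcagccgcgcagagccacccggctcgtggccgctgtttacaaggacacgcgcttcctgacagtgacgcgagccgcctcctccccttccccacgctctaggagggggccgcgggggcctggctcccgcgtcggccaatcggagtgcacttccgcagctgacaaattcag

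All 10 members had an entry in that table, with 12 promoters between them, and the search for TTCNNNGAA covered both strands, since the motif is its own reverse complement. Only Socs3 held a match, 1 of 10 members, beside 8.13% of 27025 genes in the table. The narrower TTCCNGGAA was found in 0 of the members and in 1.09% of the genes. A match is a description of the letters and not a measured binding site, and these windows do not reach distal elements. For Socs3 the 180 bases just upstream of the protein-coding transcript Socs3-201 were not searched either, so the counts do not cover its whole promoter.

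Over the 45 pairs of members, 4 had r above 0.5 and 8 had r below -0.5, with a median of -0.06, so the members did not move as 1 unit over the libraries. Stat3 and Pim3 were the most alike, at r = 0.78 (rho 0.80), falling to 0.63 without WT-1 replicates 1 and 2. Lifr was most like Socs3 (0.51), Il6st most like Jak1 (0.38), Pim1 most like Stat3 (0.36), Bcl3 most like Socs3 (0.50) and Gbx2 most like Junb (0.60). Over 11410 other genes at that level, the 5 most like Socs3 were BC030867 (r = 0.96), Pif1 (0.91), Zfp691 (0.91), BC037034 (0.90) and Mrpl33 (0.90). No member was among them.

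**Figure D4:**
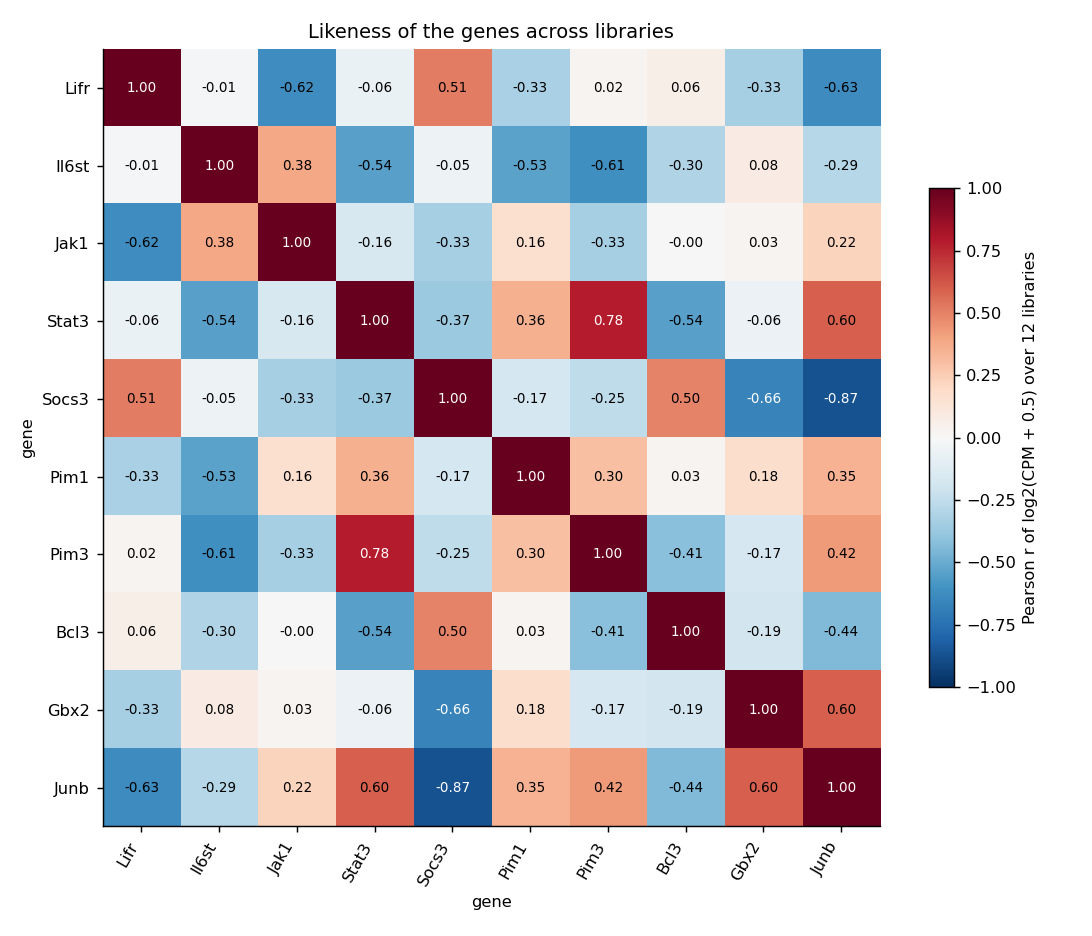
Pearson's r of log2(CPM + 0.5) between each pair of the 10 genes over the 12 libraries, printed in each cell, with red for positive and blue for negative values. Socs3 and Junb have -0.87 and Stat3 and Pim3 0.78.

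Junb and Socs3 also went with the immediate early genes, transcription factors and other genes that serum, growth factors or handling of cells induce within minutes. The immediate early level, the median of centred log2 values over 15 such genes without the members, put the libraries into 2 clusters. Replicate 1 of all 4 lines and WT-1 replicate 2 were low, at -0.77 to -0.29, with 31.6 to 53.7 CPM of Junb and 137 to 214 CPM of Socs3. The other 7 libraries were high, at 0.13 to 0.64, with 69.8 to 126 CPM of Junb and 101 to 143 CPM of Socs3. Junb thus separated the clusters and Socs3 overlapped by a few libraries. Within the 7 libraries r was 0.46 for Junb and -0.25 for Socs3. Of the 15 genes 13 were higher in mutant line totals, with 0 called, a median log2 fold change of 0.46 and 6 at an unadjusted p under 0.05, beside 49.8% and 13.1% of all genes. Between the wild-type lines 14 of 15 were higher in WT-2, beside 51.8% of all genes, with a median of 0.46 as well. Mut-1 replicate 1 and Mut-2 replicate 1, the only mutant libraries of the low cluster, are also feeder-rich. Leaving out the feeder-rich libraries therefore changed the immediate early level of the mutant group as well. The Junb and Socs3 values without those libraries do not isolate the feeder share. The part of the immediate early level in the Junb and Socs3 differences was not tested.

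**Figure D5:**
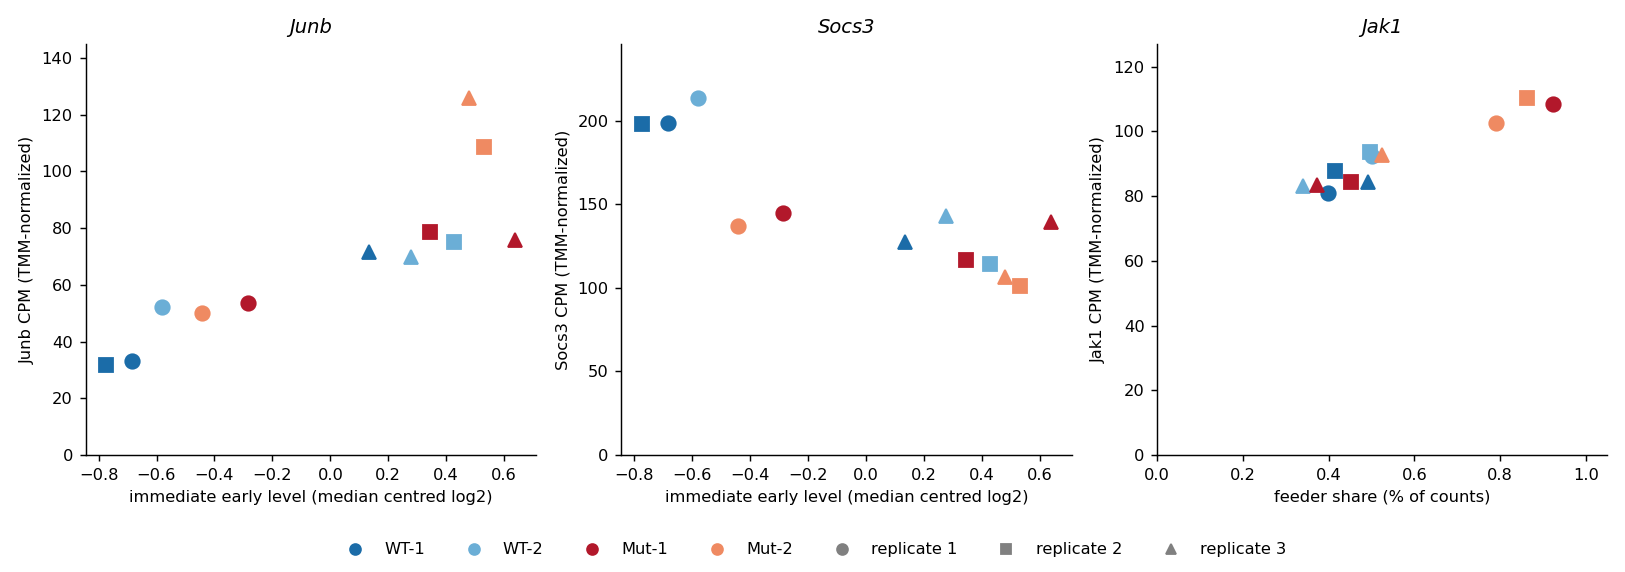
CPM of Junb (left) and Socs3 (middle) against the immediate early level of the library, and CPM of Jak1 (right) against the feeder share in percent of counts, with colours for lines and symbols for replicate numbers. Libraries with a low immediate early level have Junb at 31.6 to 53.7 CPM, and the 3 libraries with a feeder share of 0.789 to 0.924% have the 3 highest Jak1 values, 103 to 110.4 CPM.

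Around the members, the pathway's other parts were counted in lists, of which 0 genes were called for the genotype. Ligands and receptor chains of the IL-6 family were higher in mutants for 9 of 12 (median log2 difference 0.32), and 3 were at an unadjusted p under 0.05. Of all genes 49.8% were higher and 13.1% at such a p, against which this count and those of the lists below are to be read. Osmr, the oncostatin M receptor, which also pairs with gp130, had 27.8 ± 1.44 CPM in wild-type and 46.3 ± 0.497 in mutant lines (SD, n = 2; log2 fold change 0.74; adjusted p = 0.143, edgeR). Il6, the cytokine interleukin-6, had 10.7 ± 3.24 and 18.3 ± 3.54 CPM (0.77; adjusted p = 0.257), and Clcf1, another ligand of the family, had 3.82 ± 0.830 and 5.92 ± 0.565 CPM (0.63; adjusted p = 0.317). Lif itself, named for its role after its values were seen, had 15.8 ± 1.62 and 20.6 ± 5.01 CPM (0.39; adjusted p = 0.437). Over the libraries these 4 genes went with the feeder share, at r = 0.73 for Osmr, 0.62 for Il6, 0.72 for Clcf1 and 0.83 for Lif. The fibroblast markers themselves were higher in mutants for 24 of 24, with a median of 0.58, 22 at an unadjusted p under 0.05 and 0 called. Only Tagln among them was under 1 CPM on average, and the part of feeder RNA in these ligand and receptor values was not tested.

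Of the other JAK and STAT genes, 5 of 9 were higher, with a median of 0.05. Jak3, a kinase best known from lymphocyte cytokine receptors, had 53.3 ± 1.64 CPM in wild-type and 29.4 ± 6.78 in mutant lines (log2 fold change -0.86; adjusted p = 0.168, edgeR), and its libraries ran from 34.5 to 65.5 CPM and from 17.7 to 39.2 CPM. Stat6, another STAT factor, had 48.6 ± 0.231 and 57.2 ± 6.31 CPM (0.24; adjusted p = 0.443). Feedback inhibitors beside Socs3 were higher for 6 of 14, with a median of -0.05. Socs4 had 35.2 ± 1.55 and 46.8 ± 1.13 CPM (0.41; adjusted p = 0.237) and Socs5 15.1 ± 0.939 and 19.1 ± 1.31 CPM (0.34; adjusted p = 0.380), values of the opposite sign to that of Socs3. Over the libraries r with the feeder share was 0.85 for Socs5 and 0.28 for Socs4. Ptpn1, a tyrosine phosphatase that acts on JAKs, had a log2 fold change of -0.20 (adjusted p = 0.510).

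The arm of the pathway through RAS and PI3K was lower for 11 of 14 genes, with a median of -0.11. Among its genes of lowest p were Shc1, an adaptor, at -0.29 (adjusted p = 0.326, edgeR), and Akt1, a kinase, at 0.32 (adjusted p = 0.375; r = 0.78 with the feeder share). Further STAT3 targets were higher for 9 of 15, with a median of 0.18 and 6 at an unadjusted p under 0.05. This list holds Fos, itself an immediate early gene, which ran from 5.73 to 442 CPM over the libraries. The part of the immediate early level in the counts of this list was not tested. Klf5, a naive pluripotency factor downstream of LIF, had 122 ± 1.79 CPM in wild-type and 173 ± 11.2 in mutant lines (0.50; adjusted p = 0.181). Its libraries did not overlap, at 94.5 to 146 and 149.8 to 191 CPM, as for 1.97% of all genes. Klf5 had r = 0.75 with the immediate early level and 0.32 with the feeder share. Cebpd had 15.9 ± 0.480 and 25.0 ± 1.19 CPM (0.65; adjusted p = 0.177) and r = 0.96 with the feeder share, and Ier3 had 0.43 (adjusted p = 0.223; r = 0.73 with the feeder share). Klf4 and Tfcp2l1, the best known mediators of STAT3 in stem cells and named for that role after their values were seen, had 0.25 (adjusted p = 0.535) and 0.06 (adjusted p = 0.872). Among the immediate early genes the smallest p belonged to Ctgf at 0.67 (adjusted p = 0.137; r = 0.84 with the feeder share), Egr3 at 2.46 (adjusted p = 0.171; 0.324 ± 0.211 against 1.78 ± 0.647 CPM) and Egr2 at 1.82 (adjusted p = 0.223; 0.98 ± 0.748 against 3.43 ± 0.272 CPM).

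Markers of other cell types were present at low to moderate levels. Under 1 CPM on average were 3 of 10 endoderm, 3 of 9 trophoblast, 3 of 8 neural and 5 of 8 blood markers. The highest means of these lists were 13.9 CPM for Dab2 (endoderm), 48.0 for Tfap2c (trophoblast), 47.7 for Tubb3 (neural) and 35.6 for Cd68 (blood). Endoderm markers were higher in mutants for 8 of 8 tested, trophoblast markers for 3 of 8, neural markers for 5 of 7 and blood markers for 5 of 6, beside 49.8% of all genes and with 0 called. The endoderm marker Pdgfra is also on the fibroblast list. Dab2 had 19.8 to 26.8 CPM in the feeder-rich libraries and 7.44 to 16.3 in the others. Sox7 and Sox17 were instead highest in Mut-1 replicate 3, at 3.72 and 2.36 CPM, which is not feeder-rich. The part of feeder RNA in the endoderm values was not tested. Stem cell markers were higher for 3 of 12 (median log2 difference -0.07), with 0 called.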

How the data were processed

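The deposited values are counts: whole numbers of reads per gene symbol, not normalized by the authors, in 1 table with 12 library columns. Per the submitters' processing notes, HISAT2 2.1.0, Bowtie2 2.2.3, bcl2fastq and HTSeq 0.6.0 were used with GRCm38. Which step each served, and which annotation and strand option applied, is not given in the sources used here, so reads of overlapping genes cannot be told apart. Groups came from the sample titles. Library totals of 14766477 to 17891894 counts set the precision.

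For the genotype the 3 libraries of a line were summed, and 2 mutant and 2 wild-type lines were compared with edgeR 4.0.16 (R 4.3.3): TMM, filterByExpr, quasi-likelihood test, Benjamini-Hochberg adjustment over all genes at 0.05. Pairs of lines were compared in 1 edgeR fit of 12 libraries with 4 line groups, whose p-values measure only the spread between libraries, which may be technical. The scripts were tested on simulated counts with the same dispersion for every gene and no line differences beyond the changes put in. That simulation does not test how the fits handle variation between lines, feeder share or replicate numbers. Alternatives used limma 3.58.1 and DESeq2 1.42.0, no filter, another scaling, left-out libraries and lines, the feeder share and the replicate number. Correlations use log2(CPM + 0.5).

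The members and the 13 lists (161 symbols, of which 2 had no row) were chosen with earlier results of these data known; the relations shown in detail were chosen after their values were seen. Text names all members, the 3 genes of smallest genotype p per pathway list (mean level 1 CPM or more) and, per member, the most similar other member. The values of 2 genes that this rule names are not reported here. Whether replicate numbers pair libraries was checked by the correlation of same-numbered libraries' deviations from their line means. Each was over 0.1 between WT-1 and WT-2 (0.19, 0.37 and 0.62), WT-2 and Mut-2 (0.70, 0.39 and 0.11), Mut-1 and Mut-2 (0.49, 0.14 and 0.34), and WT-2 and Mut-1 (0.40, 0.39 and 0.29), but not between WT-1 and Mut-1 (-0.13, 0.22 and 0.10) or WT-1 and Mut-2 (-0.10, -0.26 and -0.29). The labels do not tie the numbers to a day or batch.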

Additional observations from a re-analysis of the deposited data

Results flagged for a closer look

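Among the 6 mutant libraries, Bcl3 in Mut-1 replicate 3 stood apart from the others at 42.7 CPM, with the nearest library at 33 CPM. The gap was 0.735 of the whole range, above Dixon's 95% critical value for 6 samples. The test was made on 20 groups, and chance marks about 1 in 20.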

How the results depend on the processing

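Of 950 values of members under alternatives over the 5 comparisons, 899 kept direction and side of the threshold, 45 reversed (31 by leaving out a library or line) and 6 were called only there. Over 23 alternatives of the genotype comparison Socs3 stayed between -0.52 and -0.27 (adjusted p 0.104 to 0.689) and Junb between 0.29 and 0.86 (0.118 to 0.689). Counts of genes called moved most. For the genotype (0 in edgeR) they were 1 with DESeq2's size factors in edgeR, 77 without a filter, 361 in DESeq2, 224 in limma with line as a random block, 102 with the replicate block added and 39 with the feeder share, and 0 to 158 over left-out libraries and lines (158 without line Mut-1). In the limma fits the estimated correlation within lines was -0.004 with the line block, 0.083 with the replicate block and 0.056 with the feeder share. These fits thus treated the 12 libraries nearly as independent replicates of the genotype, which they are not. For Mut-1 against WT-1 (54) the counts of genes called were 543 without a filter, 196 in DESeq2, 34 with a log2 fold change of at least 1, and 16 (without WT-1 replicate 1) to 447 (without WT-1 replicate 3). For Mut-2 against WT-2 (153) they were 966, 657 and 76 in the same order, 51 with the feeder share, 1 without the 3 feeder-rich libraries (added after seeing the data), and 8 (without Mut-2 replicate 2) to 234 (without Mut-1 replicate 1). For WT-2 against WT-1 (3) they were 201 without a filter, 62 in DESeq2, 6 with the feeder share and 0 to 42 over left-out libraries. For Mut-2 against Mut-1 (43) they were 270, 126, 20 with a log2 fold change of at least 1, 1 without the feeder-rich libraries, and 5 (without Mut-1 replicate 3) to 70 (without WT-1 replicate 3). The replicate block gave 100, 328, 6 and 68 calls in these 4 pairs and changed no call of a member; same-numbered libraries deviated together, all 3 correlations over 0.1, in the last 3 of these pairs only, which is a pattern in the data and not stated by the labels. Members called were 0 in each comparison except without a filter, with 1 (Junb, Mut-1 against WT-1), 2 (Gbx2 and Junb, Mut-2 against WT-2), 1 (Pim1, WT-2 against WT-1) and 1 (Gbx2, Mut-2 against Mut-1), and in DESeq2 with 1 (Pim1, WT-2 against WT-1). Log2 fold changes that changed sign were, for the genotype with the feeder share in limma, Il6st -0.049, Jak1 -0.013, Stat3 0.040 and Pim3 0.12, and without the feeder-rich libraries Il6st -0.033, Stat3 0.025 and Pim3 0.037. For Mut-1 against WT-1 they were Jak1 -0.0090, Pim1 0.050 and Gbx2 0.16 without the feeder-rich libraries, and Gbx2 0.15 with the feeder share. With the feeder share Jak1 had -0.021 in Mut-2 against WT-2, and Il6st -0.021 and Pim3 0.032 in Mut-2 against Mut-1. Over left-out libraries and lines the genotype values ran from -0.075 to 0.18 for Il6st, -0.083 to 0.057 for Stat3, -0.46 to 0.20 for Pim1, -0.18 to 0.14 for Pim3 and -0.045 to 0.92 for Gbx2. For Mut-1 against WT-1 they ran from -0.011 to 0.17 for Jak1, -0.27 to 0.047 for Pim1, -0.46 to 0.078 for Bcl3 and -0.63 to 0.15 for Gbx2; for WT-2 against WT-1 from -0.44 to 0.030 for Socs3, -0.29 to 0.31 for Bcl3 and -0.50 to 0.12 for Gbx2; and for Mut-2 against Mut-1 from -0.037 to 0.16 for Il6st, -0.24 to 0.071 for Pim3 and -0.21 to 0.092 for Bcl3. The cause of these changes was not tested. Gbx2, at a mean of 9.61 CPM, has the fewest counts and the widest intervals of the members.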
